A study of Mus musculus with 32 samples.

Results

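In the mouse forebrain, 30 of 56459 transcript features changed in opposite directions between hippocampus and cortex in 2 neuron populations, called CamK and SST in the sample titles. Of these, 14 were higher in hippocampus than in cortex in CamK neurons and lower in hippocampus than in cortex in SST neurons, here the CamK-hippocampal set. The other 16 were lower in hippocampus than in cortex in CamK neurons and higher there in SST neurons, here the CamK-cortical set. Members were chosen by their measured levels, as the counts of a feature scaled to a common column total (CPM), averaged over the 4 libraries of each population and region. A member had to differ at least 2-fold between regions in both populations, in opposite directions, with at least 1 CPM in all 4 libraries of both higher groups. A feature was dropped where its highest group mean was 2 times or more the second, or the second 2 times or more the third. This removed features that mark 1 or 2 groups by these margins. Members just under the limits remained, with a highest mean of up to 1.96 times the second.

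Ribosome-associated RNA was sequenced in 32 libraries, in 8 groups of 4, every one labelled wild type. The hippocampal groups were CamK, SST and Grik, and the cortical groups were CamK, SST, Scnn, VIP and PV. The labels give no strain, age, sex or allele, name the populations only by these short titles, and do not say how the ribosomes were taken from 1 cell type or whether replicates are separate animals, so that p-values measure the spread between libraries, which may be technical. Column totals were 100158438 to 114153919 counts, except for SST hippocampus replicate 1 with 186505391, and Spearman correlations within groups were 0.974 to 0.987.

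By general knowledge, CamK, Scnn and Grik are names of drivers active in glutamatergic (excitatory) neurons, Scnn mostly in layer 4 of the cortex and Grik mostly in area CA3 of the hippocampus. SST, PV and VIP stand for classes of GABAergic (inhibitory) interneurons. SST interneurons of both regions are known for contacting the dendrites of excitatory cells, as Martinotti cells in the cortex and as oriens-lacunosum moleculare cells in the hippocampus. RNA on ribosomes is read as a measure of what a cell is translating, nearer to protein output than total RNA. The features carry identifiers that no file used here pairs with a gene name, so no role can be given for a member, the populations could not be checked against marker genes, and no sequence is shown.

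Opposite change was the rarer kind. The same steps applied to features moving the same way in both populations kept 138, of which 48 were higher in hippocampus and 90 higher in cortex. Before the drop conditions the numbers were 68 opposite and 291 in the same direction. The drop conditions removed 20 of 34 features on the CamK-hippocampal side, 18 of them because 1 group mean was 2 times or more every other. On the CamK-cortical side they removed 18 of 34, 9 for each of the drop conditions.

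**Figure D1:**
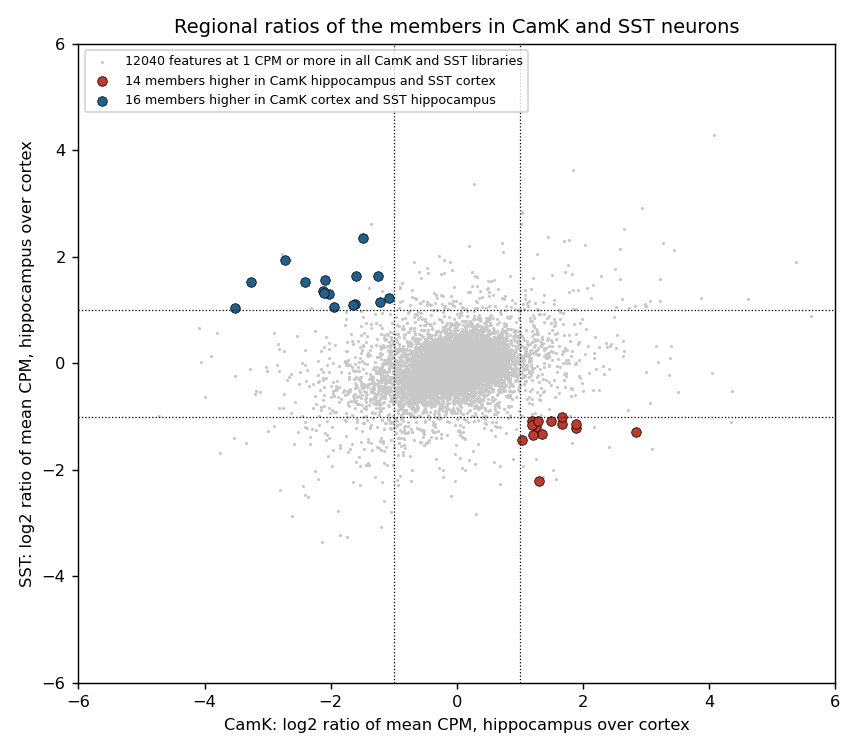
Log2 ratio of mean CPM, hippocampus over cortex, in CamK neurons (x axis) and SST neurons (y axis). Grey points are 12040 features at 1 CPM or more in all 16 CamK and SST libraries (1 lies outside the axes), red and blue points are the 14 and 16 members, and dotted lines mark the 2-fold limits; most members lie close to the limit of 2-fold on at least 1 axis.

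Most members passed the fold limits narrowly. In 21 of 30 the smaller of the 2 regional changes was under 2.5-fold, 13 of 14 in the CamK-hippocampal set and 8 of 16 in the CamK-cortical set. The member closest to the limit changed 2.01-fold in the CamK-hippocampal set and 2.06-fold in the CamK-cortical set, in both cases in SST neurons. The nearest features outside changed 1.99-fold and 1.97-fold. The regional change was larger in CamK than in SST neurons in 23 of the 30 members. At least 4-fold differences were seen in 9 members in CamK neurons, 8 of them in the CamK-cortical set, and in 2 members in SST neurons. Regional differences were also more frequent in CamK neurons over all 24555 features tested. There, CamK libraries lay without overlap higher in hippocampus in 17.6% and lower in 16.9%, and SST libraries in 12.2% and 13%. A larger change in CamK neurons is thus not read as a trait of the members.

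The CamK-hippocampal set had a median ratio of hippocampus over cortex of 2.51 (range 2.05 to 7.17) in CamK neurons and of 0.44 (range 0.22 to 0.50) in SST neurons. The CamK-cortical set had a median ratio of 0.25 (range 0.087 to 0.48) in CamK neurons and of 2.53 (range 2.06 to 5.11) in SST neurons. The libraries of both regions did not overlap in 30 of 30 members in CamK neurons and in 27 of 30 in SST neurons. Over all 24555 features tested, CamK libraries lay without overlap higher in hippocampus in 17.6% and lower in 16.9%, and SST libraries in 12.2% and 13%. In an edgeR quasi-likelihood fit over all 32 libraries, where a feature was called if it passed 0.05 after Benjamini-Hochberg adjustment and differed 2-fold or more, 13 of 14 members of the CamK-hippocampal set were called higher in CamK hippocampus (all features, 5.43%) and 14 of 14 lower in SST hippocampus (all features, 3.54%). In the CamK-cortical set 16 of 16 were called lower in CamK hippocampus (all features, 8.46%) and 16 of 16 higher in SST hippocampus (all features, 3.92%). The rule chose the members on these contrasts, so the counts describe how the members were picked and nothing more.

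The members whose smaller regional change was the largest are given library by library. GSMG0001135, of the CamK-hippocampal set, stood at 7.99, 6.76, 3.15 and 4.68 CPM in CamK hippocampus, against 2.26, 2.63, 2.08 and 1.87 CPM in CamK cortex. In SST neurons the same feature stood at 4.65, 4.74, 6.01 and 6.0 CPM in hippocampus, against 14.3, 13.5, 11.9 and 13.9 CPM in cortex. All libraries of the higher group lay above all libraries of the lower group in both populations, although the CamK hippocampus libraries spread more than 2-fold among themselves. GSMG0033828 stood at 45.5, 38.8, 24.6 and 43.3 CPM in CamK hippocampus, against 4.10, 7.38, 5.82 and 3.92 CPM in CamK cortex, the largest CamK ratio of its set (7.17). Its levels in SST neurons were 22.9, 20.7, 23.6 and 42.7 CPM in hippocampus, against 64.0, 73.6, 69.3 and 63.3 CPM in cortex. The groups again did not overlap, with 1 SST hippocampus library, replicate 5, far above the other 3.

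In the CamK-cortical set GSMG0013976 stood at 41.9, 38.0, 23.6 and 25.4 CPM in CamK hippocampus, against 232.0, 174.9, 228.1 and 219.1 CPM in CamK cortex. Its levels in SST neurons were 101.0, 29.8, 184.6 and 110.2 CPM in hippocampus, against 25.1, 31.7, 23.3 and 31.2 CPM in cortex. The CamK groups lay far apart, whereas SST hippocampus replicate 2 lay among the SST cortex libraries, so this member did not separate the SST groups library by library. GSMG0000409 stood at 1.78, 2.46, 1.32 and 2.44 CPM in CamK hippocampus, against 5.32, 6.45, 6.67 and 5.78 CPM in CamK cortex. In SST neurons it stood at 5.5, 2.93, 7.39 and 6.07 CPM in hippocampus, against 2.15, 2.28, 1.22 and 1.34 CPM in cortex. Neither pair of groups overlapped, and SST hippocampus replicate 2 was again the lowest of its group.

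**Figure D2:**
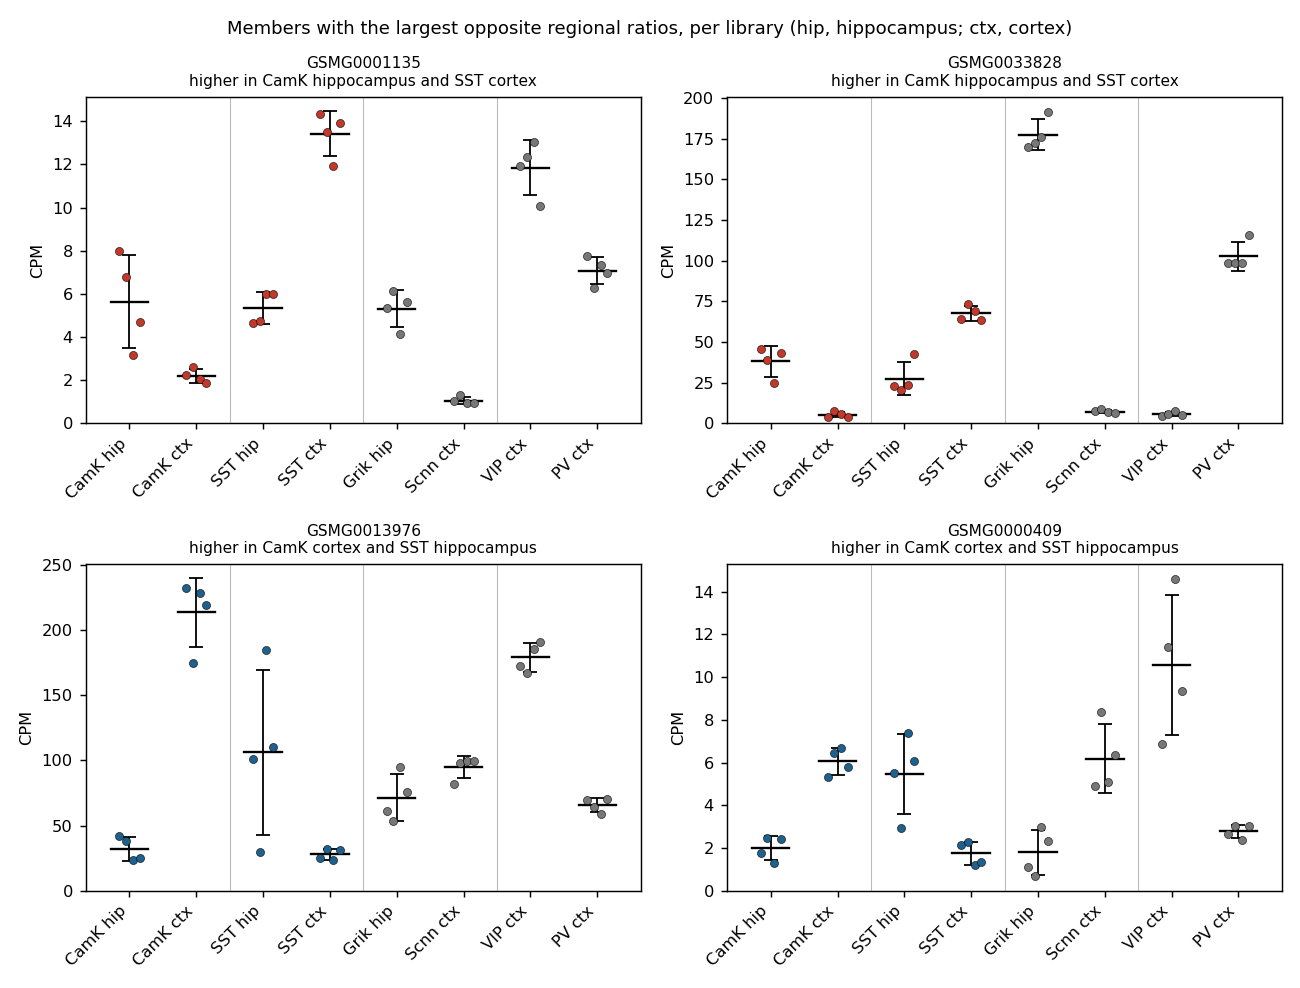
CPM per library (points) with the mean and SD (n = 4, lines and bars) in the 8 groups for the 2 members of each set with the largest smaller regional change; CamK and SST libraries are coloured and libraries of the other populations are grey. GSMG0001135 is higher in CamK hippocampus than in CamK cortex and lower in SST hippocampus than in SST cortex, and GSMG0013976 shows the reverse, with 1 SST hippocampus library at 29.8 CPM.

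Because the regional changes ran against each other, the order of SST and CamK neurons differed by region. In the CamK-hippocampal set the mean was higher in SST than in CamK in 2 of 14 members in hippocampus but in 13 of 14 in cortex, and the order turned in 11 members. The median log2 ratio of SST over CamK was -0.63 in hippocampus and 1.88 in cortex. In the CamK-cortical set the mean was higher in SST than in CamK in 16 of 16 members in hippocampus and in 3 of 16 in cortex, and the order turned in 13. The median log2 ratio of SST over CamK was 2.19 in hippocampus and -1.17 in cortex. The rule fixes that the ratio moves between regions by at least 4-fold, but not on which side of 1 it lies.

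The sets had different profiles over the 8 groups, in part because the fold condition orders the CamK and SST groups. In the CamK-hippocampal set, the 3 highest groups of a member included SST cortex in 12 of 14, PV cortex in 11, CamK hippocampus in 9, Grik hippocampus in 4, VIP cortex in 4, SST hippocampus in 2, and Scnn or CamK cortex in 0. In the CamK-cortical set they included CamK cortex in 12 of 16, VIP cortex in 12, SST hippocampus in 10, Scnn cortex in 9, PV cortex in 3, SST cortex in 1, Grik hippocampus in 1 and CamK hippocampus in 0. The highest group mean exceeded the lowest by a median of 13.5-fold (range 5.04 to 79.4) in the CamK-hippocampal set and of 8.0-fold (range 5.53 to 49.0) in the CamK-cortical set. The drop conditions tie the 3 highest group means of a member together, whichever groups these are. The fold condition fixes which region is higher in CamK and in SST, so the counts for those groups partly restate the rule. The counts for Grik, Scnn, VIP and PV are not free of it either, since the drop conditions use all 8 group means. With CamK and SST each lower in 1 region, a high level in another population can help a feature pass. No such counts were made over other features, so these are not read as traits of the sets.

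Summed over its members, the CamK-hippocampal set made up 402.6 to 475.3 CPM in CamK hippocampus libraries, against 136.1 to 147.4 CPM in CamK cortex libraries, and 226.7 to 272.9 CPM in SST hippocampus, against 532.2 to 594.4 CPM in SST cortex. It summed to 456.7 to 484.2 CPM in Grik hippocampus and 87.8 to 106.1 CPM in Scnn cortex, and to 292.3 to 327.2 CPM in VIP cortex and 476.4 to 486.1 CPM in PV cortex. The CamK-cortical set summed to 85.9 to 100.9 CPM in CamK hippocampus, against 372.7 to 427.9 CPM in CamK cortex, and to 511.4 to 728.3 CPM in SST hippocampus, against 222.2 to 261.5 CPM in SST cortex. It summed to 105.8 to 151.5 CPM in Grik hippocampus and 353.7 to 406.1 CPM in Scnn cortex, and to 405.8 to 470.3 CPM in VIP cortex and 273.5 to 335.7 CPM in PV cortex. The direction between regions of the CamK and SST sums was fixed by the fold condition. A few abundant members weigh most in these sums, 1 of them giving 258.5 CPM of the mean of 594.3 CPM in SST hippocampus. Member by member on the log2 scale, the Grik hippocampus mean lay nearer to the CamK hippocampus mean than to the CamK cortex mean for 5 of the 14 members of the CamK-hippocampal set and for 12 of the 16 of the CamK-cortical set. Of the sum of 468 CPM in Grik hippocampus over the CamK-hippocampal set, 3 members (GSMG0033828, GSMG0028828 and GSMG0037352, named after their values were seen) gave 328 CPM. The Scnn cortex mean lay nearer to the CamK cortex mean for 11 of the 14 and 15 of the 16 members.

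**Figure D3:**
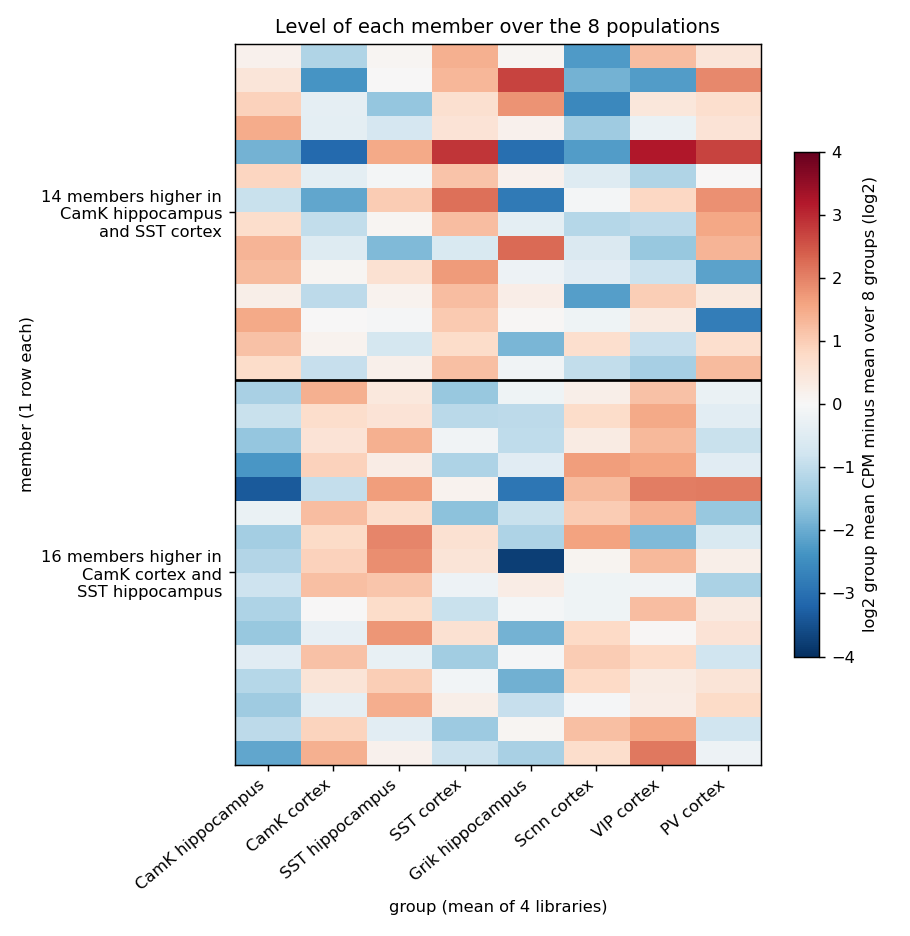
Log2 group mean CPM of each member (rows) relative to its own mean over the 8 groups (columns), with the 14 members of the CamK-hippocampal set above the line and the 16 of the CamK-cortical set below it, and red above and blue below the member's own mean. The highest medians are those of SST cortex (1.21), CamK hippocampus (0.80) and PV cortex (0.68) in the CamK-hippocampal set, and of VIP cortex (1.27), SST hippocampus (0.87), CamK cortex (0.84) and Scnn cortex (0.76) in the CamK-cortical set. The CamK and SST medians partly restate the fold condition, and those of the other groups are not free of the drop conditions.

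Grik hippocampus was set against Scnn cortex, the glutamatergic populations of each region whose libraries did not enter the fold condition. The tests below share the drop conditions with the rule. Since CamK and SST are each lower in 1 region, a high level in Grik, Scnn, VIP or PV can help a feature pass those conditions. Calls of members in these tests are therefore not independent of the rule. The shares over all features, or over features passing the floor and drop conditions, do not adjust for it. In the CamK-hippocampal set 6 of 14 members were higher in Grik hippocampus, where 9% of all features tested were, and 2 were lower, where 18.4% of all features were. Of the 16 members of the CamK-cortical set 0 were higher and 11 were lower, by the same backgrounds. Among the features that pass the floor and drop conditions of each set, whatever their regional change, 7.97% were higher and 7.64% lower on the CamK-hippocampal side, and 7.81% higher and 7.93% lower on the CamK-cortical side. The median log2 fold change was 0.91 in the CamK-hippocampal set and -1.73 in the CamK-cortical set, against -0.09 over all features tested. So 17 of the 30 members differed between Grik hippocampus and Scnn cortex in the direction they have in CamK neurons, 2 in the other direction, and 11 were not called. Of the features moving the same way in both populations, 36 of 48 with more in hippocampus were higher in Grik, and 69 of 90 with more in cortex were lower. These are different populations, and no test within 1 population across regions is possible outside CamK and SST.

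GSMG0033828 stood at 170.1, 172.4, 176.1 and 191.4 CPM in Grik hippocampus, against 7.47, 8.57, 7.02 and 6.08 CPM in Scnn cortex (log2 fold change 4.73 with SE 0.23, adjusted p = 2.59e-16 in edgeR). GSMG0028828 stood at 74.3, 78.4, 85.0 and 65.4 CPM in Grik hippocampus, against 2.78, 4.84, 4.07 and 2.94 CPM in Scnn cortex (log2 fold change 4.50 with SE 0.21, adjusted p = 2.04e-17 in edgeR). Every Grik library of these members lay above every Scnn library. GSMG0028828 also had the largest SST change of its set, with 7.42 ± 1.37 CPM in SST hippocampus and 34.4 ± 5.98 CPM in SST cortex (SD, n = 4 each).

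On the CamK-cortical side GSMG0019339 stood at 1.04, 1.72, 1.82 and 1.24 CPM in Grik hippocampus, against 23.4, 25.7, 24.6 and 29.9 CPM in Scnn cortex (log2 fold change -4.03 with SE 0.22, adjusted p = 1.17e-15 in edgeR). GSMG0052774 stood at 1.15, 1.97, 1.38 and 1.57 CPM in Grik hippocampus, against 21.3, 19.7, 20.4 and 27.0 CPM in Scnn cortex (log2 fold change -3.74 with SE 0.30, adjusted p = 3.11e-11 in edgeR). Both were low in the 2 hippocampal glutamatergic groups, at 1.05 ± 0.48 and 9.13 ± 2.26 CPM in CamK hippocampus, yet at 33.8 ± 8.46 and 74.4 ± 7.70 CPM in SST hippocampus (SD, n = 4 each). Not every member followed CamK neurons. The 2 members of the CamK-hippocampal set that were lower in Grik had log2 fold changes of -2.62 and -2.34, and GSMG0013976, whose smaller regional change was the largest of the 30, was not called (-0.28, SE 0.29, edgeR adjusted p = 0.44).

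VIP cortex was set against PV cortex, the interneuron populations outside the fold condition. In the CamK-hippocampal set 8 of 14 members were lower in VIP (all features, 8.87%) and 2 were higher (all features, 20.7%). Among the 16 members of the CamK-cortical set 8 were higher in VIP and 1 was lower, by the same backgrounds. Among features passing the floor and drop conditions, 9.43% were higher and 9.09% lower on the CamK-hippocampal side, and 9.29% higher and 9.33% lower on the CamK-cortical side. The median log2 fold change was -1.15 in the CamK-hippocampal set and 1.01 in the CamK-cortical set, against 0.23 over all features tested. Called members of the CamK-hippocampal set were mostly higher in PV, and those of the CamK-cortical set mostly higher in VIP. Of the 48 features with more in hippocampus in both populations, 31 were higher in VIP and 8 lower. Of the 90 with more in cortex, 35 were higher and 21 lower. More calls towards VIP were thus not particular to the CamK-cortical set. The titles of VIP, like those of the hippocampal groups, carry a W that those of PV and of the other cortical groups lack, so population and title series cannot be told apart here, nor can region and title series within CamK, within SST or between Grik and Scnn.

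GSMG0042541 stood at 6.57, 6.16, 6.4 and 5.83 CPM in VIP cortex, against 0.81, 0.89, 0.25 and 0.90 CPM in PV cortex (log2 fold change 2.87 with SE 0.29, adjusted p = 7.37e-10 in edgeR), 1 of the 2 members of the CamK-hippocampal set higher in VIP. GSMG0025003, of the CamK-cortical set, stood at 3.38, 3.18, 2.25 and 1.61 CPM in VIP cortex, against 0.36, 0.44, 0.29 and 0.29 CPM in PV cortex (log2 fold change 2.66, SE 0.36, edgeR adjusted p = 1.64e-07). The VIP libraries of both lay above all PV libraries. In the other direction GSMG0033828 was at 4.70, 5.8, 7.65 and 5.04 CPM in VIP cortex, against 98.3, 98.4, 98.4 and 116.0 CPM in PV cortex (log2 fold change -4.41, SE 0.23, edgeR adjusted p = 9.07e-16). GSMG0037352 was at 4.21, 5.51, 7.87 and 4.19 CPM in VIP cortex, against 35.7, 46.7, 40.5 and 35.3 CPM in PV cortex (log2 fold change -3.13, SE 0.25, edgeR adjusted p = 8.37e-12). GSMG0033828 and GSMG0037352 were also high in Grik hippocampus, at 177.5 ± 9.60 and 74.7 ± 4.53 CPM, above their own level in every other group. Without PV cortex the drop conditions would have removed both. GSMG0033828 had its next mean in SST cortex at 67.6 CPM, and GSMG0037352 fell from 39.8 CPM in CamK hippocampus to 10.7 CPM in CamK cortex. Their calls against PV thus rest on levels that also made them members.

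The mean of PV and VIP cortex was set against Scnn cortex, the contrast of GABAergic and glutamatergic cortex without CamK or SST libraries. In the CamK-hippocampal set 8 of 14 members were higher in the interneurons (all features, 8.94%) and 2 lower (all features, 10.1%). The CamK-cortical set had 0 of 16 higher and 4 lower, with the remaining 12 not called. Among features passing the floor and drop conditions, 5.92% were higher and 8.61% lower on the CamK-hippocampal side. On the CamK-cortical side 5.77% were higher and 8.57% lower. The median log2 fold changes were 1.26 and -0.42, against -0.01 over all features tested. The mean hides the split between PV and VIP. PV alone against Scnn gave 10 higher (all features, 12%) and 2 lower (all features, 16.8%) in the CamK-hippocampal set and 8 lower in the CamK-cortical set. Of the 48 features with more in hippocampus in both CamK and SST neurons, 14 were higher in PV and 23 lower. Of the 90 with more in cortex, 13 were higher and 40 lower. Lower levels in PV were thus not particular to the CamK-cortical set. VIP alone against Scnn gave 4 higher (all features, 10.5%) and 2 lower (all features, 7.56%) in the CamK-hippocampal set, and 2 higher and 1 lower in the CamK-cortical set.

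GSMG0006498 had the largest difference, with 169.7, 161.5, 133.8 and 154.1 CPM in VIP cortex and 114.7, 98.8, 111.0 and 111.0 CPM in PV cortex, against 3.92, 4.75, 3.03 and 2.71 CPM in Scnn cortex (log2 fold change 5.05, SE 0.22, edgeR adjusted p = 7.68e-18). It was low in all 4 glutamatergic groups and lower in SST hippocampus (47.8 ± 2.69 CPM) than in SST cortex (121.6 ± 10.3 CPM), so its opposite change in CamK neurons took place at 4.51 ± 1.20 CPM in hippocampus and 1.95 ± 0.53 CPM in cortex (SD, n = 4 each). Without PV or without VIP cortex the drop conditions would have removed GSMG0006498, its next group mean being that of SST hippocampus. Its call here thus rests on levels that also made it a member. GSMG0028828 followed at 3.02 (SE 0.19, edgeR adjusted p = 1.19e-14). GSMG0038241 differed the other way, with 3.17, 4.63, 6.31 and 4.56 CPM in VIP cortex and 12.4, 10.3, 9.63 and 10.1 CPM in PV cortex, against 46.9, 43.9, 51.5 and 54.3 CPM in Scnn cortex (log2 fold change -2.93, SE 0.15, edgeR adjusted p = 1.93e-16). No interneuron library of PV or VIP reached the lowest Scnn library, while the SST libraries of this member stood at 62.4 ± 11.6 CPM in hippocampus and 24.4 ± 4.40 CPM in cortex. Without Scnn cortex (mean 49.2 CPM) the drop conditions would have removed GSMG0038241, its next mean being 27.4 CPM in CamK cortex. Its call against Scnn thus rests on a level that also made it a member. GSMG0039058 was called at -1.24 (SE 0.30, edgeR adjusted p = 0.000838), but without Scnn cortex replicate 2 its log2 fold change was -0.94 and under the 2-fold limit.

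**Figure D4:**
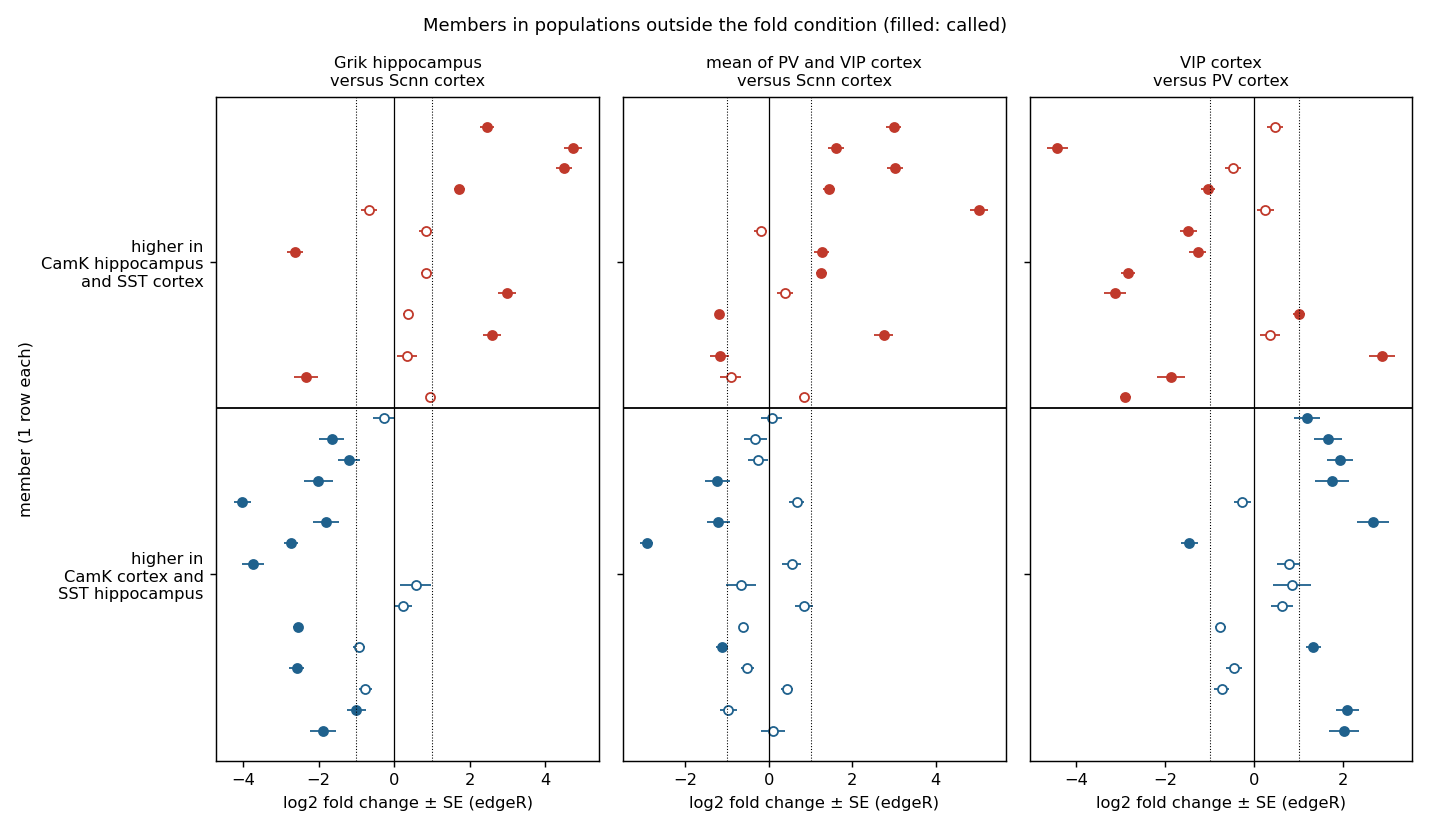
Log2 fold change ± SE from edgeR of each member (rows, in the order of the plot of levels by population) in 3 contrasts of populations outside the fold condition; red marks the CamK-hippocampal set, blue the CamK-cortical set, filled circles are called, and dotted lines mark 2-fold. Of the CamK-cortical set 11 of 16 members are called lower in Grik hippocampus than in Scnn cortex (all features, 18.4%). In VIP against PV cortex 8 of 16 are called higher (all features, 20.7%). All these groups entered the drop conditions, so the calls are not independent of the rule.

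Within groups the members varied by a median coefficient of variation of 13.8% (PV cortex) to 23.7% (CamK hippocampus). The widest spread of a member was 71.4%, in Scnn cortex. In CamK hippocampus the CamK-cortical set, which is low there, had a median of 28% and the CamK-hippocampal set 17.2%. Members had a median deposited length of 2070 (range 536 to 46053), against 1639 over all features tested, 1413 and 1415 over features passing the floor and drop conditions of the CamK-hippocampal and CamK-cortical side, and 2370.5 and 2103 in the sets that moved the same way towards hippocampus and towards cortex. A pair of members of the CamK-hippocampal set carries consecutive identifiers, at 41.2 and 46.6 CPM in PV cortex and 33.2 and 44.1 CPM in SST cortex. Whether they overlap in the genome is not given in the sources used here, so they may not be separate observations. In bulk libraries of this kind, fewer cells with a transcript and less of it per cell cannot be told apart.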

How the data were processed

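The deposited values are expected counts per feature, which need not be whole (20.1% of values above 0 were whole within 1e-06), in 1 table with a deposited length per feature, per the file headers. A stranded kit for polyadenylated RNA took 50 ng per library, per the labels' protocols. The submitters' processing notes list featureCounts, SAMtools, Picard, FastQC and the build GRCm38 without roles or versions. For the aligner, the annotation and the strand setting, nothing is given in the sources used here. Hence overlapping, antisense and near-identical features have uncertain values. Of the identifiers, 0 occurred in the reference tables, and 12 columns that match no sample were not used.

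The membership rule was applied to CPM of column totals. Tests used rounded counts in edgeR 4.0.16 (R 4.3.3): filterByExpr kept 24555 features and 30 of 30 members, with TMM scaling, 1 coefficient per group, a robust quasi-likelihood fit with 24 residual degrees of freedom (common biological coefficient of variation 0.253) and Benjamini-Hochberg adjustment over all features tested. Standard errors are the log2 fold change over the square root of F. DESeq2 1.42.0 was an alternative. The fit was tested on simulated data with equal means in all groups except for changes planted in Grik hippocampus. These data differ from that setting, and no result here rests on it. The members, contrasts and lists were chosen with earlier results of these data known. Named features are, per set, the 2 with the largest smaller regional log2 ratio, and, per tested contrast, the 2 called members with the largest positive and the 2 with the largest negative log2 fold change with at least 1 CPM on the higher side. Features named beside these were chosen after their values were seen. Marker genes could not be looked up.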

Additional observations from a re-analysis of the deposited data

Results flagged for a closer look

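Each value below lay far from the other 3 libraries of its group, the gap to its neighbour passing Dixon's 95% limit as a share of the group's whole range. This was tried on 128 groups of 4 values, of which chance alone would mark about 6.4 (1 in 20), and 7 were marked. SST hippocampus replicate 1 had a total of 186505391 counts, where the other libraries of its group had 109141183 to 114153919. GSMG0033828 was at 42.7 CPM in SST hippocampus replicate 5 (others 20.7 to 23.6 CPM) and at 116.0 CPM in PV cortex replicate 4 (others 98.3 to 98.4 CPM). GSMG0013976 was at 81.9 CPM in Scnn cortex replicate 1 (others 98.0 to 99.8 CPM). GSMG0042541 was at 0.254 CPM in PV cortex replicate 3 (others 0.814 to 0.895 CPM). The summed level of the CamK-cortical set was 261.5 CPM in SST cortex replicate 1 (others 222.2 to 226.6 CPM) and 335.7 CPM in PV cortex replicate 1 (others 273.5 to 278.4 CPM).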

How the results depend on the processing

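The number of members depended most on the limits of the rule (CamK-hippocampal set given first, CamK-cortical set second). It was 84 and 74 at a fold condition of 1.5, 0 and 2 at 3, 34 and 34 with the drop conditions left out, 382 and 610 with no floor, and 9 and 5 with a floor of 5 CPM. With TMM-normalised CPM it was 12 and 20, and with group medians 17 and 15, of which 12 and 12 were members of the rule as given. Leaving out 1 of the 16 CamK and SST libraries gave 12 to 17 and 14 to 18 members, and 8 and 11 were members without any 1 of them; without SST hippocampus replicate 1 there were 12 and 18. Members called numbered 19 for Grik hippocampus against Scnn cortex (17 to 20 without 1 library), 14 for the mean of PV and VIP against Scnn cortex (12 to 16) and 19 for VIP against PV cortex (17 to 19). Without the fold threshold the second was 22, and with VIP alone, chosen after seeing the data, it was 9; the other settings tried (scaling, filters, DESeq2, fewer groups) kept each count within 1.5 times. With the title number as a replicate block the counts were 19, 14 and 19, with Grik against Scnn at 7 higher in the CamK-hippocampal set and 10 lower in the CamK-cortical set. Same-numbered libraries deviated together by correlations of -0.0686 to 0.123 over 14 pairs, so the numbers were not taken as pairs. Of 476 repeats of the named results 474 kept their call and 0 changed sign; besides the case given for Scnn cortex replicate 2, GSMG0039058 lost its call with VIP alone against Scnn (-0.37, edgeR adjusted p = 0.435).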
